A study of Mus musculus with 18 samples.

Results

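The genes described are 10 members of the BCL2 family, chosen by name: the survival genes Bcl2, Bcl2l1 (BCL-XL) and Mcl1, the BH3-only death genes Bcl2l11 (BIM), Bbc3 (PUMA), Pmaip1 (NOXA), Bid and Bad, and the effectors Bax and Bak1. All 10 were found by symbol in both deposited tables, each of which lists 24391 genes. BCL2 family proteins decide at the mitochondrial outer membrane whether a cell enters intrinsic apoptosis. BH3-only proteins carry the death signal, survival proteins hold BH3-only proteins and effectors in check, and free BAX and BAK open the membrane and release cytochrome c, which starts the caspase cascade. In T cells, BCL2 and MCL1 keep resting cells alive, BIM acts in the deletion of self-reactive thymocytes and in the contraction of responses, and PUMA is a target of p53.

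RNA was sequenced in E2-10HA, a mouse T cell hybridoma, that is, a T cell fused with a tumour cell and grown as a continuous line. In the knockdown experiment, cells carried a pLKO.1 plasmid with 1 hairpin against L3MBTL3 (L3MBTL3 shRNA, 3 libraries) or with a scramble hairpin (scramble, 3 libraries), and both groups were selected with puromycin. In the rescue experiment all cells were depleted of RBPJ and selected with blasticidin, and they carried a pMY-Bio plasmid for Flag-tagged mouse RBPJ F261A/A284V (4 libraries), for the Flag-tagged wild type (RBPJ WT, 4 libraries) or with no insert (empty vector, 4 libraries). RBPJ is the DNA-binding factor of the Notch pathway and also represses genes with corepressors. L3MBTL3, an MBT domain protein, is one of its partners. The labels do not say whether the libraries came from separate cultures, clones or infections, so every p-value speaks of the variation among these libraries alone, part of which may be technical.

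The values are the authors' normalized counts, from which whole reads were recovered. A knockdown library held between 4882485 and 6129134 recovered reads and a rescue library between 3553505 and 7921533. Of 14 T cell markers, 11 were above the filter in both tables, and the other 3 (Cd5, Cd8a and Cd8b1) reached at most 6.14 normalized counts. Summed markers of B cells, NK cells and stroma reached at most 4.62 in any library. Rbpj averaged 778 ± 125 normalized counts with F261A/A284V, 752 ± 101 with RBPJ WT and 281 ± 32.1 in empty vector libraries (SD, n = 3 each). L3mbtl3 itself was 394, 371 and 370 in the libraries labelled L3MBTL3 shRNA and 467, 447 and 352 in scramble replicates 1, 2 and 3 (limma adjusted p = 0.402). In scramble replicate 3 the L3mbtl3 value was lower than in all 3 libraries labelled L3MBTL3 shRNA, so every knockdown direction given here is that of the labels. Scramble replicate 3 also stood apart from the other scramble libraries (chi-square per degree of freedom 6.22 and 6.38, against 1.42 between those 2), and replicates 1 and 2 of the rescue stood apart from replicates 3 and 4. In 3 pairs of rescue libraries (replicates 3 and 4 of F261A/A284V, replicates 1 and 2 of RBPJ WT and replicates 1 and 2 of the empty vector) the counts differed by less than the sampling noise. Each such pair entered means and SDs once, as the mean of both, which leaves n = 3 in every rescue group. Rescue means of F261A/A284V thus weigh replicates 1 and 2 more, and those of RBPJ WT and the empty vector replicates 3 and 4. Where these pairs of replicates differ, that weighting enters the group means, and the SDs hold the difference. Replicates 3 and 4 of the empty vector (chi-square per degree of freedom 1.06) stayed 2 samples, although they differed by little more than sampling noise.

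Of the 10 members, 9 passed the filter on low values (10 or more normalized counts in 3 or more libraries of the knockdown, or 4 or more of the rescue). Pmaip1, which encodes NOXA, did not. It held 1 read over the 6 knockdown libraries and 1 read over the 12 rescue libraries, in scramble replicate 2 and in empty vector replicate 1. A library with no read of a gene allows up to 3 reads, which corresponds to a normalized count of between 1.90 and 4.62 here and covers counting error only. Differences of Pmaip1 between groups were not detectable at this depth.

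Per kilobase of exon (GENCODE M21 exons of the build GRCm38, while the submitters' processing notes name mm9), levels of the members above the filter spanned about 1 order of magnitude. Mcl1, which encodes a short-lived survival protein, was highest in the knockdown table, at 376 ± 4.47 normalized counts per kb in libraries labelled L3MBTL3 shRNA and 371 ± 20.5 in scramble libraries. Bak1, an effector, followed at 329 ± 5.37 and 336 ± 25.3 in the same groups. The ranges of Mcl1 and Bak1 did not overlap in the libraries labelled L3MBTL3 shRNA and overlapped in scramble libraries. Bax, Bbc3, Bcl2 and Bcl2l11 came next, between 116 and 207 per kb on average, and most neighbours in that stretch overlapped. Bad, Bcl2l1 and Bid were the lowest members with reads in every library, at averages of 84.0, 55.8 and 37.8 per kb in libraries labelled L3MBTL3 shRNA. In the rescue table Bak1 stood first in all 3 groups and overlapped with Mcl1 in each. It was at 321 ± 67.8 per kb with F261A/A284V, 338 ± 57.2 with RBPJ WT and 351 ± 64.7 in empty vector libraries. Bcl2l1 was the lowest member above the filter there, at 47.1 ± 8.33, 40.7 ± 10.3 and 39.8 ± 10.2 per kb in those groups. The order of the groups in these means rests on the unequal weight of the replicates. In the same order of groups, Bak1 averaged 680, 656 and 665 normalized counts in replicates 1 and 2. In replicates 3 and 4 it averaged 956, 893 and 935. Bcl2l1 averaged 238, 232 and 236 in replicates 1 and 2 and 172, 164 and 156 in replicates 3 and 4. Bcl2l1 lay below Bid in the rescue and above Bid on average in the knockdown. The tables were normalized separately, so that shift was not tested.

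**Figure D1:**
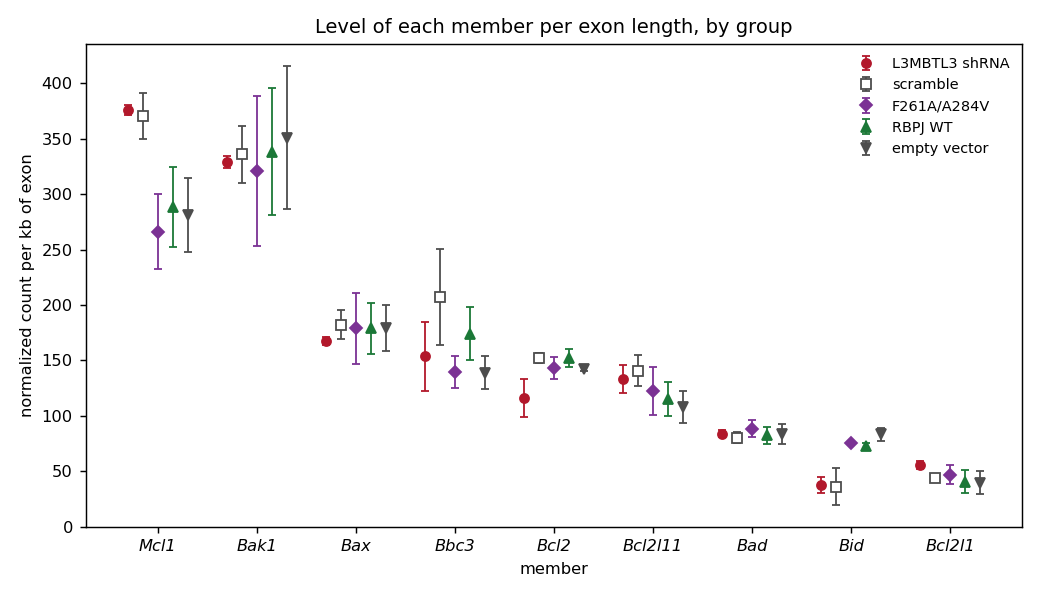
Mean normalized count per kilobase of exon (vertical axis) for the 9 members above the filter, in the 5 groups; bars are the SD over 3 samples. Mcl1 and Bak1 lie between 266 and 376 per kb in every group, and Bcl2l1 lies at or under 55.8. Rescue means weigh replicates 1 and 2 more for F261A/A284V and replicates 3 and 4 more for the other rescue groups.

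The members lie on 8 chromosomes of GRCm38. Bcl2 spans chr1:106538178-106714274 (minus strand), Bcl2l1 chr2:152780668-152831728 (minus) and Mcl1 chr3:95658788-95663176 (plus). Bcl2l11 spans chr2:128126038-128162547 (plus), Bbc3 chr7:16308393-16318205 (plus), Bid chr6:120891930-120916853 (minus) and Bad chr19:6941861-6951899 (plus). Bax lies at chr7:45461697-45466898 (minus) and Bak1 at chr17:27019810-27029009 (minus). Exons of 4 of these genes overlap exons of a gene on the other strand: Bcl2 with D630008O14Rik, Bak1 with Ggnbp1, Bid with Bcl2l13 and Bad with Gpr137. Bax shares exonic bases with Gm45808 on its own strand. Bcl2l13 held 697 to 891 normalized counts and Gpr137 160 to 243, so the reads of Bid and Bad are the ones such overlap could reach most. No source used here states whether counting used the strand, and reads of the overlapping genes may be shared.

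Windows of 300 bases from RefSeq (build GRCm38.p6), 250 before a start site and 50 after it, were listed for 9 members, 15 windows in all. They are shown for the 4 members that passed the test in a fit blocked on replicate number, at the most upstream start listed, and for Bad, whose window holds the letters of the RBPJ core site more than once. All read 5′ to 3′ along the gene's strand, and capitals mark TTCCCA, the reverse complement of TGGGAA.
Bcl2 (chr1:106714241-106714540, minus strand): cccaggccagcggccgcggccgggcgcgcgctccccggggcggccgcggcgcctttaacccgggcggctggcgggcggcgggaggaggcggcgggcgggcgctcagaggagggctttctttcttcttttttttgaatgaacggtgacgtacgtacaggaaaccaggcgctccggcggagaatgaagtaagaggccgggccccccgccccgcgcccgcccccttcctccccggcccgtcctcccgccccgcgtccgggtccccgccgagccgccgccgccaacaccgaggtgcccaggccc
Bcl2l1 (chr2:152831679-152831978, minus strand): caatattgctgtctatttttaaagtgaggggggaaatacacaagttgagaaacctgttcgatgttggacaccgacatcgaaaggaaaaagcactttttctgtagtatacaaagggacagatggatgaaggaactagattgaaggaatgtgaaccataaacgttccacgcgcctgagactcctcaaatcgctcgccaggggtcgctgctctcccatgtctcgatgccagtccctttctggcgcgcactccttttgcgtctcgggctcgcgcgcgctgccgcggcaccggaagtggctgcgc
Bcl2l11 (chr2:128125788-128126087, plus strand): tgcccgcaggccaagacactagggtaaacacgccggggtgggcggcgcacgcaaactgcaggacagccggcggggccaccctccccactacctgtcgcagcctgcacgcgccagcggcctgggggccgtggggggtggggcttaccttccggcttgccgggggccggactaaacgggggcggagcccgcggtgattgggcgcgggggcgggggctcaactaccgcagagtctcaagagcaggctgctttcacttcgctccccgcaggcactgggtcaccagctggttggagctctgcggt
Bbc3 (chr7:16309333-16309632, plus strand): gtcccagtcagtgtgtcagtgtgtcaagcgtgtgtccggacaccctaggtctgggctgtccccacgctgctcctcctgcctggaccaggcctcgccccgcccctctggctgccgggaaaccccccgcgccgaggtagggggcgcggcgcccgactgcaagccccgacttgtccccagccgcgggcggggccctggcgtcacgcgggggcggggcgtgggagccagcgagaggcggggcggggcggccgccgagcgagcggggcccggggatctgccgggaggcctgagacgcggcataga
Bad (chr19:6941611-6941910, plus strand): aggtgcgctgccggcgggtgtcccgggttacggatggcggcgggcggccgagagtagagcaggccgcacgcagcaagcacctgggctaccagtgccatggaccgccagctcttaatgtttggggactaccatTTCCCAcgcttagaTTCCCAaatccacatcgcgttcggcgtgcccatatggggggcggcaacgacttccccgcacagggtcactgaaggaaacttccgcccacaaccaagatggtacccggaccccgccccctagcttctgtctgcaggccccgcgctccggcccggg

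TGGGAA was searched on both strands of the 15 windows. It was found in 3 windows of 2 members, 1 of Bax and 2 of Bad, and 25.6% of the 32851 windows listed for all genes hold it. The Bad window shown holds 2 matches on its minus strand, and 1 of them reads CGTGGGAA, a form held by 0.734% of all windows. None of the windows of Bcl2, Bcl2l1, Mcl1, Bcl2l11, Bbc3, Bak1 or Bid holds the core, which says only that these letters are not in these windows.

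The first comparison concerns genes that change upon targeting of L3MBTL3. The survival gene Bcl2 and the BH3-only gene Bbc3 were lower in the libraries labelled L3MBTL3 shRNA than in scramble libraries. The survival gene Bcl2l1 was higher. Each of these directions held in all 3 replicate numbers. Bcl2l11 and Bax were also lower in all 3, with smaller log2 fold changes (-0.08 and -0.12). The share of all genes with 1 direction in every replicate number was not computed. In bulk RNA, fewer cells with a transcript and less of it per cell cannot be told apart. None of the 9 members passed the test in limma with group as the only term, with 0.05 as the limit of the p-value after Benjamini-Hochberg adjustment over 11586 genes, of which 3.32% passed. At an unadjusted p under 0.05 there were 3 of 9 members, beside 2949 of 11586 genes, so that share was near the background. In the other tools, edgeR called 0 and DESeq2 called Bcl2, where 4.07% of all genes passed in edgeR and 5.65% in DESeq2. In limma blocked on the replicate number (the paired fit), Bcl2 and Bbc3 fell and Bcl2l1 rose, 3 of 9 members, where 22.2% of all genes passed (13.5% higher and 8.71% lower). The median log2 fold change of the 9 members was -0.03, beside -0.01 over all genes.

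Bcl2 had 1033, 920.4 and 1231 normalized counts in the libraries labelled L3MBTL3 shRNA and 1439, 1397 and 1353 in scramble libraries. Every library labelled L3MBTL3 shRNA lay below every scramble library, and replicate 3 showed the smallest gap. Bcl2 averaged 1061 ± 157 in libraries labelled L3MBTL3 shRNA and 1397 ± 43.0 in scramble libraries (SD, n = 3 each). Its log2 fold change was -0.41 (SE 0.0975, limma adjusted p = 0.0606, and 0.00315 in the paired fit). Same-numbered libraries differed by -0.48, -0.60 and -0.14 on the log2 scale.

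Bcl2l1 had 269, 262 and 236 normalized counts with the L3MBTL3 hairpin label, against 209.6, 209 and 183 in scramble libraries. The groups did not overlap, and replicate 3 was the lowest of each. Its mean was 255.8 ± 17.4 against 200.5 ± 15.1 (SD, n = 3 each), and the log2 fold change was 0.35 (SE 0.0959, limma adjusted p = 0.0768, and 0.0156 in the paired fit). The 3 differences between same-numbered libraries were 0.36, 0.33 and 0.36. In terms of each other, there were 3.84, 3.51 and 5.21 normalized counts of Bcl2 for each of Bcl2l1 in the libraries labelled L3MBTL3 shRNA and 6.87, 6.69 and 7.39 in scramble libraries. That these ratios did not overlap follows from the values of both genes and adds nothing to them.

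Mcl1, the third survival gene, averaged 1285 ± 15.3 in libraries labelled L3MBTL3 shRNA and 1267 ± 70.0 in scramble libraries (SD, n = 3 each). Its log2 fold change of 0.02 had a 95% interval of -0.11 to 0.15.

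Among the BH3-only genes, Bbc3 had 297, 281 and 402 normalized counts in the libraries labelled L3MBTL3 shRNA and 393, 380.4 and 547 in scramble libraries. Replicate 3 was the highest library of each group, and the groups overlapped because of it. Bbc3 averaged 326.6 ± 66.0 in libraries labelled L3MBTL3 shRNA and 440.1 ± 92.7 in scramble libraries (SD, n = 3 each). Its log2 fold change was -0.43 (SE 0.171, limma adjusted p = 0.167). Differences between same-numbered libraries were close to each other, at -0.40, -0.44 and -0.44, and the paired fit gave an adjusted p of 0.0014. Bcl2l11, which encodes BIM, averaged 1070 ± 99.8 and 1130 ± 111, a log2 fold change of -0.08 with a 95% interval of -0.29 to 0.13. Bid, which caspase 8 cleaves into an active form, varied most within a group, with 161, 131 and 109 in the libraries labelled L3MBTL3 shRNA and 145, 177 and 62.7 in scramble libraries. Scramble replicate 3 was its lowest library, and the log2 fold change of 0.17 had a 95% interval of -0.63 to 0.98. Bad averaged 214.8 ± 7.76 and 205.5 ± 13.1, with overlapping groups.

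Of the effectors, Bax had 259, 269.8 and 264 normalized counts in the libraries labelled L3MBTL3 shRNA and 275, 275 and 311 in scramble libraries. The groups did not overlap, and scramble replicate 3 was well above the others. The log2 fold change was -0.12 (SE 0.0798, limma adjusted p = 0.375). Bak1 averaged 793 ± 12.9 and 808 ± 61.0, with overlapping groups and a log2 fold change of -0.03 (95% interval -0.17 to 0.12). Bcl2, Bcl2l1 and Bax made 3 of 9 members whose groups did not overlap, where 35.2% of all genes tested did not, so that share was near the background.

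**Figure D2:**
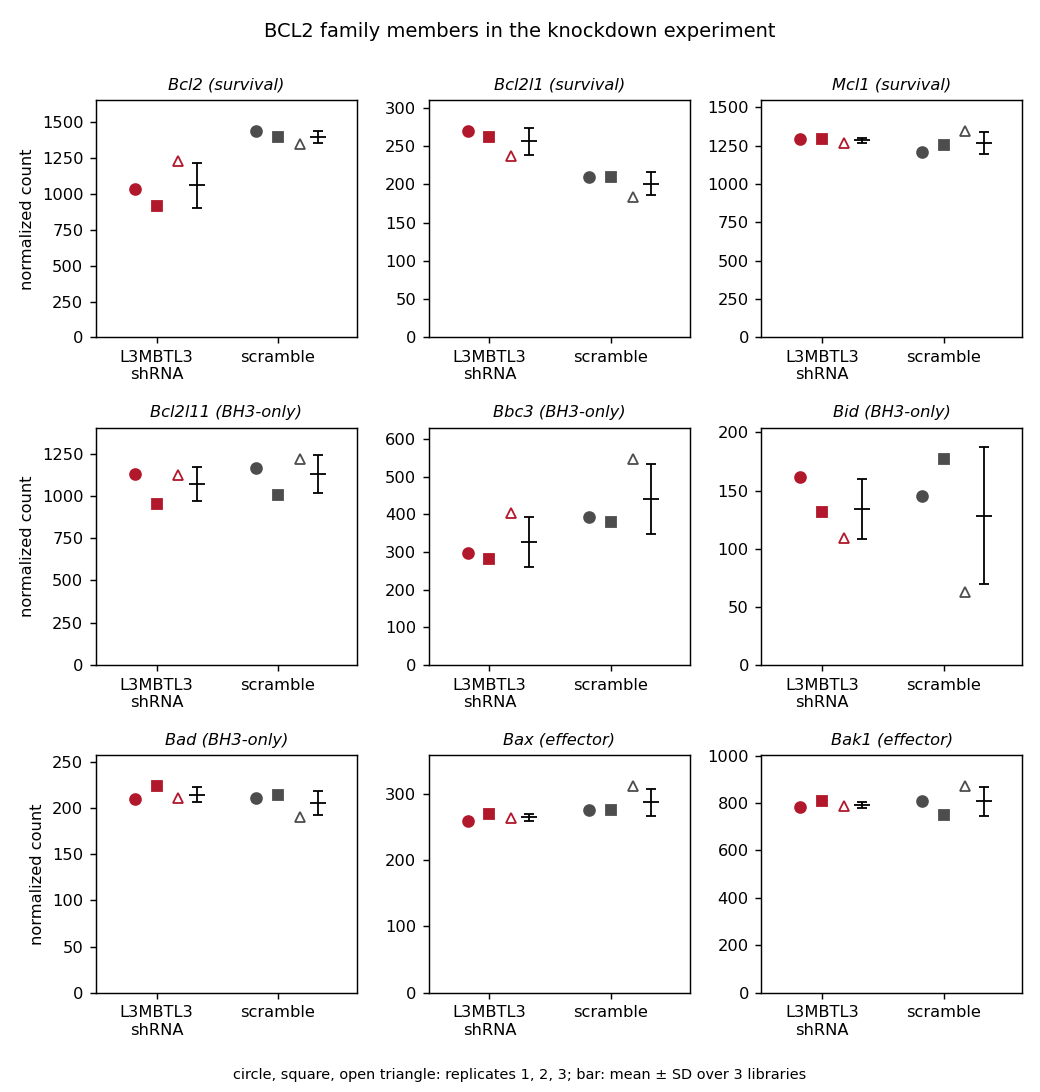
Normalized count (vertical axis, from 0) of each member in the 3 libraries labelled L3MBTL3 shRNA (left) and the 3 scramble libraries (right), with mean ± SD; each symbol shape is a replicate number. Bcl2 lies between 920.4 and 1231 against 1353 to 1439, and Bbc3 is lower in each same-numbered pair while the groups overlap through replicate 3.

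The paired calls were checked without each library. Bcl2 and Bbc3 stayed called in 6 of 6 such fits, and Bcl2l1 in 3 of 6, its adjusted p reaching 0.121. In a paired fit of 2 groups, leaving out 1 library also leaves its same-numbered partner without a comparison. The 6 fits thus amount to 3 checks, each on 2 remaining replicate numbers, and are not 6 separate ones. Those 6 fits called between 1537 and 3173 of 11586 genes. The call of Bcl2l1 was lost without scramble replicate 1, L3MBTL3 shRNA replicate 1 or L3MBTL3 shRNA replicate 2. Without replicate 3 of both groups and with group as the only term, Bcl2 (log2 fold change -0.54, adjusted p = 0.000551), Bbc3 (-0.42, 0.00367) and Bcl2l1 (0.34, 0.0176) all passed, where 16.6% of all genes passed. Summed myeloid markers also differed in this comparison, at 254 to 322 in libraries labelled L3MBTL3 shRNA against 377 to 409 in scramble libraries, mostly through Cd68. Of 7 such markers 2 passed the filter, Cd14 was at 0 in all 6 libraries and Adgre1 reached at most 1.92. Any part of these markers in the changes of the members was not tested.

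The rescue comparisons asked which genes RBPJ WT or its F261A/A284V form changes in cells depleted of RBPJ. Bbc3 was higher with RBPJ WT and Bcl2l11 higher with F261A/A284V than with the empty vector in all 4 replicate numbers. So was Bcl2 with RBPJ WT, while Bid was lower with both forms in all 4. The share of all genes with 1 direction in every replicate number was not computed. In limma with group as the only term, 0 of 9 members passed in each of the 3 comparisons. Of 11691 genes, 0.248% passed for RBPJ WT against the empty vector, 0.0171% for F261A/A284V against the empty vector and 0.316% for F261A/A284V against RBPJ WT. At an unadjusted p under 0.05 there were 2, 1 and 0 members in that order, beside 398, 240 and 540 of 11691 genes, and edgeR and DESeq2 called 0 members in each. Of all genes, edgeR called 0.24%, 0.0171% and 0.248% in these comparisons and DESeq2 0.513%, 0.0599% and 0.667%. Since all 12 libraries share that fit, the step between replicates 1 and 2 and replicates 3 and 4 entered its error. In the paired fit, Bbc3 rose with RBPJ WT and Bcl2l11 rose with F261A/A284V, each against the empty vector, 1 of 9 members in each comparison, where 2.23% and 0.65% of all genes passed. Against RBPJ WT, the paired fit called Bcl2l11 higher and Bbc3 lower with F261A/A284V, 2 of 9 members, where 4.74% of all genes passed. The median log2 fold change of the members was 0.02 for RBPJ WT and 0.03 for F261A/A284V against the empty vector, and 0.06 for F261A/A284V against RBPJ WT, beside -0.01, 0.01 and 0.01 over all genes. The comparisons against the empty vector share its 4 libraries, as the comparison of both forms shares theirs.

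Bbc3 had 309.9, 316, 410.2 and 388 normalized counts in RBPJ WT replicates 1 to 4, and 263, 275, 330 and 287 in the empty vector replicates. RBPJ WT was higher within replicates 1 and 2 and within replicates 3 and 4, while over all libraries the groups overlapped. Its mean was 370.3 ± 51.1 against 295.4 ± 31.3 (SD, n = 3 each), and the log2 fold change was 0.29 (SE 0.114, limma adjusted p = 1, and 0.00382 in the paired fit, in which 2.23% of all genes passed). The log2 fold change was 0.22 within replicates 1 and 2 and 0.37 within replicates 3 and 4. With near-identical libraries merged and the step between the replicates as a term, it was 0.32 (adjusted p = 0.0194, where 1.52% of all genes passed). That merged fit kept replicates 3 and 4 of the empty vector apart, although they differed by little more than sampling noise. The paired call held without each of the 8 libraries in turn, in fits that called 137 to 225 of 11691 genes. Leaving out replicate 1 or 2 of either group kept its near-identical library in the fit, so those fits tested little. Summed myeloid markers were 235 to 264 with RBPJ WT and 287 to 312 with the empty vector, through Cd68, Itgam, Fcgr3 and Lyz2, while Cd14 and Adgre1 reached at most 0.683 in these groups. Any part of these markers in the change of Bbc3 was not tested.

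With F261A/A284V, Bbc3 had 283, 275, 337 and 326 normalized counts, close to the empty vector and below RBPJ WT in all 4 replicate numbers. Against the empty vector its log2 fold change was 0.08, with a 95% interval of -0.17 to 0.33. Against RBPJ WT it was -0.22 (SE 0.114, limma adjusted p = 1). The paired fit gave 0.0268 for that difference, where 4.74% of all genes passed, but the merged fit gave 0.165, where 1.96% of all genes passed. The paired call was also lost without F261A/A284V replicate 3 and without replicate 3 or 4 of RBPJ WT.

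Bcl2l11 had 867, 905, 1164 and 1202 normalized counts with F261A/A284V, 785, 800.3, 953 and 1036 with RBPJ WT and 757, 710.1, 959.7 and 906 with the empty vector. F261A/A284V was the highest group within replicates 1 and 2 and within replicates 3 and 4, and every group was higher in replicates 3 and 4. Means were 985 ± 173, 927 ± 124 and 866 ± 118 (SD, n = 3 each), with the replicates weighed unequally between F261A/A284V and the other groups. In the same order, means were 886, 793 and 733 within replicates 1 and 2 and 1183, 994 and 933 within replicates 3 and 4. The log2 fold change of F261A/A284V against the empty vector was 0.31 (SE 0.140, limma adjusted p = 1). In the paired fit the adjusted p was 0.00127, where 0.65% of all genes passed. In the merged fit, which kept replicates 3 and 4 of the empty vector apart, it was 0.0458, where 0.0941% of all genes passed. The paired call held without each of the 8 libraries in turn, in fits that called 11 to 174 of 11691 genes. Near-identical libraries stayed in the fits without empty vector replicate 1 or 2 or F261A/A284V replicate 3 or 4, so those fits tested little. Within replicates 1 and 2 the log2 fold change was 0.27, and within replicates 3 and 4 it was 0.34.

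Against RBPJ WT, Bcl2l11 was higher with F261A/A284V by 0.21 on the log2 scale (SE 0.140, limma adjusted p = 1), in 4 of 4 replicate numbers. The paired fit gave 0.00755 and the merged fit 0.0815, and the paired call was lost without RBPJ WT replicate 3. Bak1 and Bid were also higher, and Bcl2 and Bbc3 lower, with F261A/A284V than with RBPJ WT in 4 of 4 replicate numbers. Summed myeloid markers differed in this comparison too, at 275 to 310 with F261A/A284V against 235 to 264 with RBPJ WT. Of the 4 of them that were tested, Cd68 and Itgam were called higher with F261A/A284V in the paired fit, while Cd14 and Adgre1 reached at most 0.890. Any part of these markers in the differences of Bcl2l11 and Bbc3 was not tested. For RBPJ WT against the empty vector the log2 fold change of Bcl2l11 was 0.10, with a 95% interval of -0.20 to 0.41. Set against its survival partner, Bcl2l11 had 0.635, 0.666, 0.958 and 0.998 normalized counts for each of Bcl2 with F261A/A284V, 0.570, 0.580, 0.716 and 0.703 with RBPJ WT, and 0.593, 0.550, 0.736 and 0.686 with the empty vector.

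**Figure D3:**
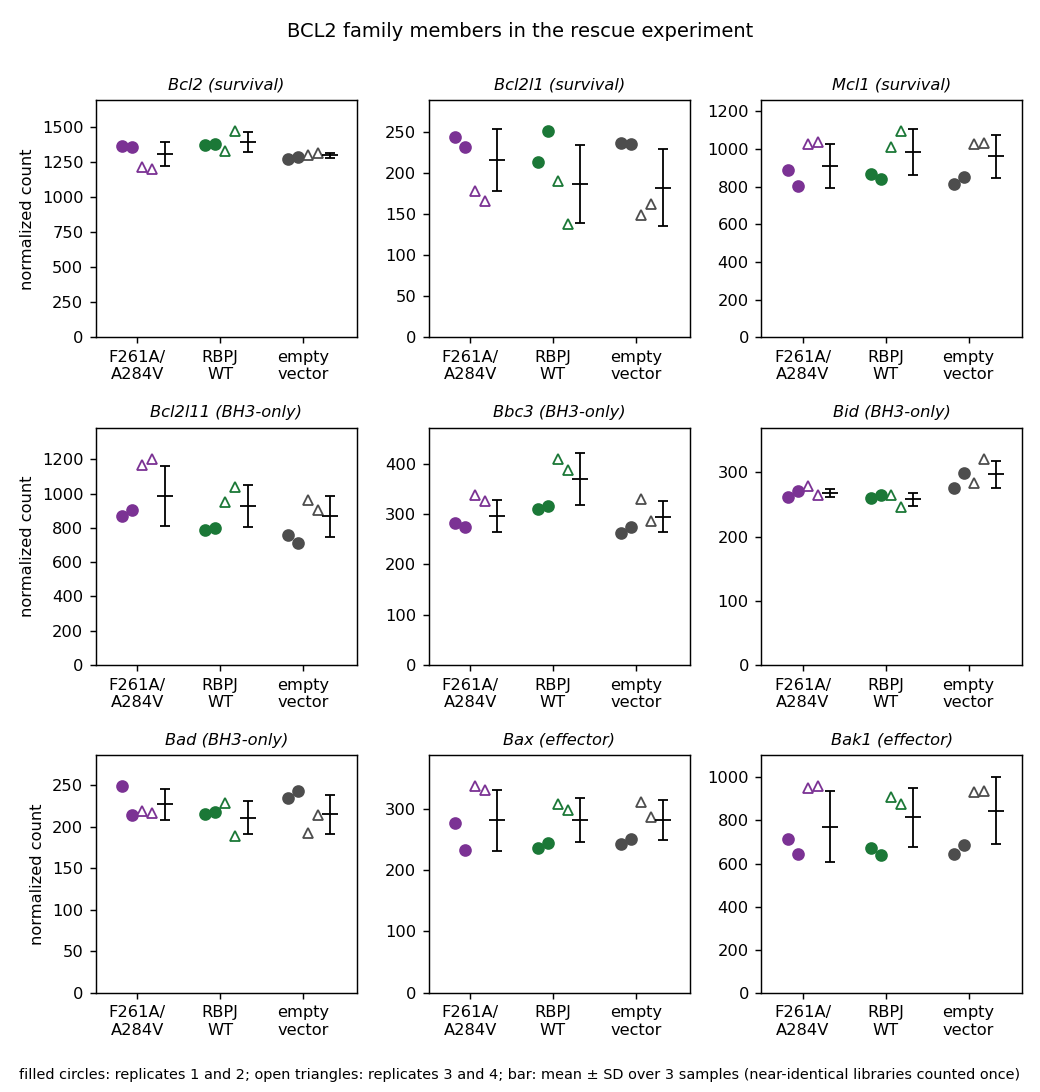
Normalized count (vertical axis, from 0) of each member in the 4 libraries of F261A/A284V, RBPJ WT and the empty vector; filled circles are replicates 1 and 2, open triangles replicates 3 and 4, and bars are mean ± SD over 3 samples. Bbc3 is highest with RBPJ WT and Bcl2l11 highest with F261A/A284V within each pair of replicates. Means weigh replicates 1 and 2 more for F261A/A284V and replicates 3 and 4 more for the other groups.

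Bcl2 had 1365, 1360, 1215 and 1205 normalized counts with F261A/A284V, 1378, 1380, 1330 and 1473 with RBPJ WT and 1276, 1291, 1303 and 1320 with the empty vector. All 4 RBPJ WT libraries lay above all 4 empty vector libraries, and F261A/A284V lay above the empty vector in replicates 1 and 2 and below it in replicates 3 and 4. The log2 fold change of RBPJ WT against the empty vector was 0.10 (SE 0.0620, limma adjusted p = 1, and 0.378 in the paired fit). For F261A/A284V against the empty vector it was 0.09 within replicates 1 and 2 and -0.12 within replicates 3 and 4. That difference between the pairs of replicates did not pass its own test (interaction term in limma, unadjusted p = 0.0236, adjusted p = 0.429). No member passed that test in any of the 3 comparisons. Of all genes, 0.0171% passed it for RBPJ WT and 0.128% for F261A/A284V, each against the empty vector. For F261A/A284V against RBPJ WT 0.573% did. Against RBPJ WT, F261A/A284V was lower by 0.02 within replicates 1 and 2 and by 0.21 within replicates 3 and 4, where its limma adjusted p was 0.0387 and 7.05% of all genes passed. That p counts F261A/A284V replicates 3 and 4 as 2 libraries although they differed by less than sampling noise. In the merged fit, the log2 fold change of Bcl2 was -0.10 (adjusted p = 0.573), and 0 of 9 members passed for F261A/A284V against RBPJ WT (2, Bcl2l11 and Bbc3, had an unadjusted p under 0.05).

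Bid was lower with both forms of RBPJ than with the empty vector in all 4 replicate numbers. It had 260.7, 271, 279 and 265 normalized counts with F261A/A284V, 260.7, 264, 265 and 246 with RBPJ WT and 275, 298, 283 and 321 with the empty vector. Every RBPJ WT library lay below every empty vector library, and F261A/A284V overlapped with the empty vector. Neither difference passed: the log2 fold changes were -0.13 with F261A/A284V (paired adjusted p = 0.428) and -0.18 with RBPJ WT (0.155). Bcl2 and Bid made 2 of 9 members whose groups did not overlap between RBPJ WT and the empty vector, where 3.34% of all genes did not. For the comparisons of F261A/A284V with the empty vector and with RBPJ WT it was 0 of 9, where 1.92% and 3.7% of all genes did not overlap. Taken within replicates 1 and 2 and within replicates 3 and 4, both in the same direction, 3 members did not overlap for RBPJ WT against the empty vector (Bcl2, Bbc3 and Bid), beside 17.6% of all genes. For F261A/A284V there were 2 against the empty vector (Bcl2l11 and Bid), beside 10.0%, and 3 against RBPJ WT (Bcl2, Bcl2l11 and Bbc3), beside 14.5%.

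The other 5 members did not pass in any fit of the rescue comparisons. In limma with group as the only term over all 12 libraries, the largest of their log2 fold changes was 0.11, for Bax in F261A/A284V against RBPJ WT, with a 95% interval of -0.19 to 0.41. Bcl2l1 had the widest intervals, reaching from -0.45 to 0.48 for RBPJ WT against the empty vector. Intervals of Mcl1 lay within -0.28 and 0.29 in the 3 comparisons, and those of Bad within -0.26 and 0.29.

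**Figure D4:**
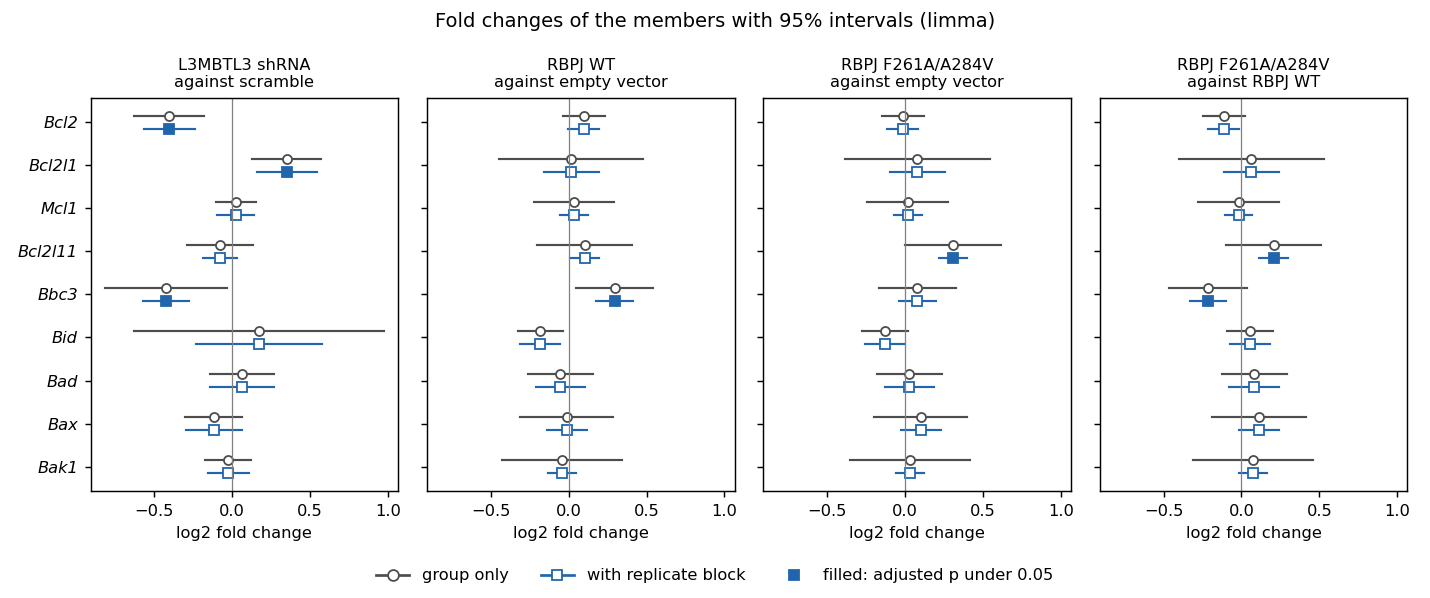
Log2 fold change (horizontal axis) of the 9 members in the 4 comparisons, with 95% intervals from limma; circles are the fit with group as the only term, squares the fit with a replicate block, and filled squares have an adjusted p under 0.05. No circle passed; filled squares are Bcl2, Bcl2l1 and Bbc3 in the knockdown, Bbc3 with RBPJ WT, and Bcl2l11 with F261A/A284V, joined by Bbc3 in the comparison of both forms.

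Replicates of the rescue differed more for several members than the groups did. Replicates 3 and 4 were higher than replicates 1 and 2 with no overlap over all 3 groups for Bak1 (median 935 against 659), Bax (310.2 against 244), Mcl1 (1029 against 845) and Bcl2l11 (998 against 793). Bcl2l1 was lower in replicates 3 and 4, at a median of 164 against 236. Bcl2, Bbc3, Bid and Bad overlapped between the pairs of replicates. For Bcl2l11 the gap was small, with a lowest value of 906.3 in replicates 3 and 4 and a highest of 905.5 in replicates 1 and 2. The share of all genes without such overlap was not computed, so these values do not set the members apart from other genes. These are values without a test, since the labels give no reason for the step.

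After the mean of each pair of replicates was subtracted, the members were compared with each other over the 12 rescue libraries, which share a table and its normalization but differ in depth. Bcl2l1 and Bad had the highest Pearson correlation between members, at 0.766, followed by Bax and Bak1 at 0.722, and Bbc3 and Bid the lowest, at -0.756. The genes most like Bcl2 were Nhlrc2 (0.966), Fam126b (0.956) and Arid4b (0.954), those most like Bcl2l11 were Cpeb4, Cd200r4 and Galc (0.955, 0.949 and 0.938), and those most like Bbc3 were Adam8, Med24 and Ttf1 (0.949, 0.918 and 0.918). Differences between groups were not subtracted and so enter these correlations. The 3 pairs of near-identical libraries count as separate libraries in them. These correlations describe 12 libraries of 3 groups and carry no test.

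Around the members, 18 other genes of the family were listed, of which 9 passed the filter. None of these 9 was called in any of the 4 comparisons by limma in either fit, by edgeR or by DESeq2. At an unadjusted p under 0.05 in limma with group as the only term there was 1 in the knockdown, Bcl2l13, and 0 in each rescue comparison. The medians of their log2 fold changes were 0.02 in the knockdown and -0.01 to 0.05 in the rescue, beside -0.01 to 0.01 over all genes. Bcl2l2, which encodes the survival protein BCL-W, averaged 460.3 ± 16.2 in libraries labelled L3MBTL3 shRNA and 444 ± 60.9 in scramble libraries. Bmf, a BH3-only gene, averaged 108 ± 8.16 and 111 ± 35.3. The Bcl2a1 genes, near-identical copies whose reads counting may split or drop, were at or near 0 throughout.

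Downstream of the mitochondria, 12 genes of the apoptosome and the caspases were tested. In the knockdown 0 of 12 passed in limma with group as the only term (5 at an unadjusted p under 0.05, beside the 2949 of 11586 over all genes), and edgeR and DESeq2 called Apaf1. Their median log2 fold change was 0.06, beside -0.01 over all genes. Apaf1, the scaffold of the apoptosome, averaged 829 ± 62.0 in libraries labelled L3MBTL3 shRNA and 639 ± 59.1 in scramble libraries (log2 fold change 0.38, paired adjusted p = 0.00177), and Endog rose in the same fit (0.32). Cycs, which encodes cytochrome c, fell by 0.25 on the log2 scale in the paired fit. Of 5 caspase inhibitor genes, Birc2 (-0.30) and Birc5 (-0.38), which encodes survivin, fell in the paired fit (list median -0.15). Of 6 tested genes of the death receptor arm, Ripk1 (0.48) and Fadd (0.64) rose in it (list median 0.26). Of the 12 genes of the apoptosome and the caspases, 3 rose and 2 fell in the paired fit. That fit called 22.2% of all genes (13.5% higher and 8.71% lower), and no list was tested as a set.

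The 18 tested regulators of the members held the 1 gene of these lists that passed in the knockdown with group as the only term. Runx1, a transcription factor of T cell development, had 658, 622 and 632 normalized counts in the libraries labelled L3MBTL3 shRNA and 524, 512 and 495 in scramble libraries. The groups were far apart relative to their spread (log2 fold change 0.32, SE 0.0542, limma adjusted p = 0.0348). In the paired fit Fbxw7, which targets MCL1 for degradation, and Foxo1 rose as well (0.31 and 0.20), and Ddit3 and Atf4 of the integrated stress response fell (-0.41 and -0.22). With Runx1, 3 of the 18 rose and 2 fell in the paired fit, where 22.2% of all genes passed. The median over the list was -0.05.

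In the rescue no gene of these lists passed in limma with group as the only term. Between 0 and 2 genes a list had an unadjusted p under 0.05. In the paired fit, Aifm1, which encodes a mitochondrial flavoprotein released in cell death, fell with RBPJ WT against the empty vector (-0.25, adjusted p = 0.0264). Aifm1 averaged 587 ± 33.7 normalized counts with F261A/A284V, 486 ± 39.8 with RBPJ WT and 595 ± 25.0 in empty vector libraries (SD, n = 3 each). It was higher with F261A/A284V than with RBPJ WT by 0.26 in the paired fit (adjusted p = 0.0116). Of all genes, 2.23% passed the paired fit for RBPJ WT against the empty vector and 4.74% for F261A/A284V against RBPJ WT.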

How the data were processed

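RNA sequencing of 18 libraries of the mouse T cell hybridoma E2-10HA was analysed. RNA was purified on columns with a DNase step and turned into strand-specific libraries after removal of ribosomal RNA, per the labels' protocols. The build mm9 and the tools TopHat2 2.1.1 and DESeq2 1.24.0 are named, per the submitters' processing notes. The sources used here give no counter, annotation or use of strand. The deposited values are a signal made by the authors, gene counts divided by 1 size factor per library and kept in 1 table per experiment. In each library 100% of values were whole reads after division by the smallest step (tolerance 0.1 read). The tests stayed within a table.

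With R 4.3.3, log2(value + 1) was tested 2-sided by limma-trend (limma 3.58.1) over 11586 genes of the knockdown and 11691 of the rescue, with group as the only term and 1 fit for the 12 rescue libraries. Fold changes are on that scale, which understates low genes. Calls needed a p under 0.05 after Benjamini-Hochberg adjustment across the whole table. Recovered reads were also tested with edgeR 4.0.16 (472 genes called in the knockdown, and 28, 2 and 29 in the rescue comparisons in the order of the report) and DESeq2 1.42.0. Other alternatives were pseudocounts of 0.5 and 5, no filter, TMM and quantile scaling, a replicate block, the pairs of replicates as a term or apart, near-identical libraries merged, and each library left out. The scripts were tested on simulated data.

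Replicate numbers are shared between groups. Deviations from group means correlated at 0.24 to 0.539 between same-numbered knockdown libraries, and same-numbered rescue libraries at 0.55 to 0.815. The block is therefore given beside each result whose call it changes. In the knockdown, number 1 of 1 group and number 2 of the other correlated at 0.104 and 0.332. Number 3 correlated with numbers 1 and 2 of the other group at -0.469 to -0.223. The knockdown block thus carries mainly replicate 3 against replicates 1 and 2. In the rescue, different numbers within the same pair of replicates correlated at 0.56 to 0.832, so the numbers carry mainly the step between replicates 1 and 2 and replicates 3 and 4.

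Libraries of 1 group were compared by a chi-square of their reads over genes. There were 3 pairs at 0.721 to 0.859 per degree of freedom, below sampling noise. Other rescue pairs lay at 1.06 to 17.0 and knockdown pairs at 1.24 to 6.38. The pair at 1.06 was replicates 3 and 4 of the empty vector, which the merged fit kept apart. Depth is given as recovered reads, and the limits of Pmaip1 cover counting error only.

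All 10 members, named by symbol, are described in each comparison. Genes of the other lists are named where called in the fit with group only or with the block, or else as examples (results of some are not reported here), and genes most like a member are the 3 with the highest Pearson r over the 12 rescue libraries. Members and lists were chosen with earlier results of these data known. Exon lengths and positions came from GENCODE M21 and promoter windows from RefSeq, both of GRCm38, and no coordinate was converted from mm9.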

Additional observations from a re-analysis of the deposited data

How the results depend on the processing

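With group as the only term 0 of 9 members were called in each comparison. In the knockdown, DESeq2 called 1 (Bcl2) and the replicate block 3. Fits without 1 library or without replicate 3 of both groups called 0 to 3. Without scramble replicate 3 it was 1 (Bcl2), beside 1029 of 11586 genes. Without replicate 3 of both groups, chosen after seeing the data, it was 3 (Bcl2, Bcl2l1 and Bbc3), beside 1923 genes. Against the empty vector, 1 member was called for RBPJ WT (Bbc3) and 1 for F261A/A284V (Bcl2l11) in several alternatives. These were the replicate block, the pairs of replicates as a term, and near-identical libraries merged with that term. The term called 283 genes for RBPJ WT and 81 for F261A/A284V, of 11691. Within replicates 3 and 4 the log2 fold change of Bbc3 for RBPJ WT was 0.37. For F261A/A284V against RBPJ WT the replicate block and the term gave 2 (Bcl2l11 and Bbc3), and the term called 598 genes. Merged libraries with the term gave 0. Fits within replicates 3 and 4 count the near-identical F261A/A284V libraries separately, so that group is in effect 1 sample there. The error in those fits is pooled over all 3 groups, so calls in them are not counted here for any comparison. Leaving out 1 library gave 0 to 0 in each rescue comparison without the block, and 0 to 2 for F261A/A284V against RBPJ WT with it (0 without RBPJ WT replicate 3, 1 without RBPJ WT replicate 4 or F261A/A284V replicate 3). The block changed no other call of a member; the causes were not tested.

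Of 702 fold changes of members under alternatives, 618 kept their direction and side of the threshold, 22 passed it and 62 changed sign, mostly near 0. Quantile scaling gave -0.03 for Bad and 0.01 for Bak1 in the knockdown, 0.01 for Bax with RBPJ WT and -0.00 for Mcl1 with F261A/A284V, both against the empty vector. For RBPJ WT against the empty vector, replicates 3 and 4 gave 0.03 for Bad and 0.02 for Bax, and replicates 1 and 2 gave -0.03 for Bcl2l1. For F261A/A284V against the empty vector, replicates 1 and 2 gave -0.05 for Bad and 0.09 for Bcl2. Merging near-identical libraries without the term, added after seeing the data, gave -0.13 for Bak1, -0.01 for Bax, 0.01 for Bcl2 and -0.08 for Mcl1 against the empty vector, and -0.08 for Bak1 and -0.01 for Bax against RBPJ WT. Leaving out 1 library moved knockdown values over -0.08 to 0.03 for Bak1, -0.16 to 0.00 for Bcl2l11, -0.27 to 0.47 for Bid and -0.01 to 0.06 for Mcl1. For RBPJ WT it moved Bad over -0.12 to 0.00, Bak1 over -0.14 to 0.04, Bax over -0.07 to 0.05, Bcl2l1 over -0.11 to 0.18 and Mcl1 over -0.03 to 0.09. For F261A/A284V against the empty vector the ranges were -0.04 to 0.08 (Bad), -0.06 to 0.14 (Bak1), -0.04 to 0.02 (Bcl2), -0.04 to 0.18 (Bcl2l1) and -0.04 to 0.09 (Mcl1), and against RBPJ WT they were -0.01 to 0.18 (Bak1), -0.10 to 0.19 (Bcl2l1) and -0.07 to 0.05 (Mcl1).

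Over all genes the knockdown gave 385 calls, against 655 in DESeq2, 909 with quantile scaling, 2575 with the block and 0 to 1923 without libraries (0 without scramble replicate 2 and without L3MBTL3 shRNA replicate 1 or 2, and 1923 without replicate 3 of both groups). The rescue comparisons gave 29, 2 and 37 calls with group only and 2.23% of genes (RBPJ WT against the empty vector), 76 and 554 calls with the block, 60, 7 and 78 in DESeq2, and 178, 11 and 229 with libraries merged and the term. Depth limits Pmaip1, and counting error is largest for Bid in the knockdown.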
